A study of Mus musculus with 42 samples.

Results

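The CXC chemokines examined here are 8 genes, Cxcl1, Cxcl2, Cxcl3, Cxcl9, Cxcl10, Cxcl11, Cxcl16 and Pf4, chosen by name from the 37310 genes of the count table by matching Ensembl identifiers to symbols. Transcripts were counted by RNA-seq in 42 libraries of bone-marrow-derived macrophages (BMDM), which are macrophages grown from mouse bone marrow in medium conditioned by L929 cells. The cells came from mice on a C57BL/6 background, either with a myeloid deletion of Irf5, the transcription factor interferon regulatory factor 5 (libraries labelled KO), or WT. The deletion was made by crossing Irf5 flox/flox mice with LysM-Cre mice, whose Cre is driven from the Lyz2 locus of myeloid cells, so that excision depends on Lyz2 activity and need not be complete. Both genotypes had groups labelled Control at 0, 2 and 24 h. They also had groups at 2 and 24 h given palmitate, the saturated fatty acid of lipotoxic stress, and groups at 2 and 24 h given LPS, the endotoxin of Gram-negative bacteria. This made 14 groups of 3 libraries. The sources used here do not say whether Control received the ethanol and albumin in which palmitate was given. All 8 genes passed the filter on low counts.

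Chemokines are small secreted proteins that steer migrating cells through G-protein-coupled receptors, and the CXC family is named for the spacing of its first cysteines. CXCL1, CXCL2 and CXCL3 act on CXCR2 and recruit neutrophils, whereas CXCL9, CXCL10 and CXCL11 act on CXCR3 and recruit activated T cells and NK cells. CXCL16 is made as a transmembrane protein that binds CXCR6 and is shed by ADAM proteases, and PF4 (platelet factor 4, CXCL4) is stored in platelet granules and is also transcribed in macrophages. LPS acts through TLR4 on NF-kappaB and on interferon regulatory factors, and the secreted type I interferon then acts through STAT proteins on a later set of genes.

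Library totals ranged from 2848793 to 7743442 counts, with a median of 5625399, so that 3 counts corresponded to 0.387 to 1.05 CPM, counts scaled to a common library total. Such floors cover counting error only. Levels below are CPM scaled by TMM (trimmed mean of M values), and library numbers 1 to 3 within a group follow column order and pair nothing. The targeted gene went against its label. Irf5 was higher, not lower, in the libraries labelled KO in 4 of 7 conditions by the test, and its log2 difference (KO minus WT) lay between 0.04 and 0.47. A count over the whole gene does not separate deleted from retained exons. Lyz2, which holds the Cre, was lower in the libraries labelled KO in 7 of 7 conditions, with log2 differences between -1.11 and -0.51. Genotypes are therefore named as the libraries are labelled. Macrophage markers were abundant throughout, with Csf1r between 1620 and 2580 CPM and Adgre1 between 1160 and 3520 CPM. Over the libraries, the summed level of the T and NK cell list was at most 3.14 CPM, of the dendritic cell list at most 12.4 CPM and of the B cell list at most 51.5 CPM, and the other lists are given beside the genotype comparisons.

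Of the 8 genes, 7 lie on chromosome 5 of GRCm38 (mm10) in a pair of clusters. Pf4 (ENSMUSG00000029373, chr5:90772435-90773383), Cxcl3 (ENSMUSG00000029379, chr5:90786103-90789600), Cxcl1 (ENSMUSG00000029380, chr5:90891241-90893115) and Cxcl2 (ENSMUSG00000058427, chr5:90903871-90905938) are on the plus strand. Cxcl9 (ENSMUSG00000029417, chr5:92321347-92328079), Cxcl10 (ENSMUSG00000034855, chr5:92346638-92348889) and Cxcl11 (ENSMUSG00000060183, chr5:92359544-92365485) are on the minus strand. Cxcl16 (ENSMUSG00000018920) is at chr11:70453983-70459984 on the minus strand. GENCODE classes Cxcl11 as a polymorphic pseudogene and RefSeq as a transcribed pseudogene, while the other 7 are protein-coding. The strand setting of the counting is not given in the sources used here. Genes that overlap another are therefore uncertain, namely Cxcl16 with Zmynd15, Cxcl10 with Art3, and Cxcl11 with Art3 and Gm2673. Of the 50-base windows of the longest transcript, 40.9% in Cxcl11 and 19% in Cxcl16 also occurred in a transcript of another gene, and for Cxcl2 the share was 5.35%, all of it in Cxcl3.

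The bases before the transcription start (RefSeq, GRCm38.p6) are shown for the 6 members that the sequence table held, since all of them rose with LPS in WT but with different time courses. They run 5′ to 3′ on the strand of the gene from 250 bases before the RefSeq start, without bases inside the GENCODE gene. Capitals mark matches, on either strand, to the NF-kappaB consensus, to the interferon-stimulated response element (ISRE, GAAANNGAAA) and to AP-1 (TGANTCA).
Cxcl1, chr5:90890995-90891240, plus strand: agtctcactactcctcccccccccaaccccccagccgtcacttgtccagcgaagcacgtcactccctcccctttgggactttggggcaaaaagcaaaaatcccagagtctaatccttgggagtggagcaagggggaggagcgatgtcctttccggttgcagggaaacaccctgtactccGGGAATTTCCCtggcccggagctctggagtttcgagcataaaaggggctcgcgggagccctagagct
Cxcl2, chr5:90903649-90903870, plus strand: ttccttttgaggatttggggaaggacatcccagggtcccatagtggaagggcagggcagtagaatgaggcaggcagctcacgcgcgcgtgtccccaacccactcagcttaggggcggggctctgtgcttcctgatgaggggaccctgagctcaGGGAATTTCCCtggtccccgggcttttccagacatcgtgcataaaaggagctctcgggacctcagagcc
Cxcl3, chr5:90785851-90786100, plus strand: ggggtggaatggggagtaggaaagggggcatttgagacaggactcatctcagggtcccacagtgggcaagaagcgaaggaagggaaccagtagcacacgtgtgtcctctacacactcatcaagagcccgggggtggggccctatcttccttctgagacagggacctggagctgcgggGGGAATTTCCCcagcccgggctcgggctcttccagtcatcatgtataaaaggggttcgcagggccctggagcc
Cxcl10, chr5:92348890-92349139, minus strand: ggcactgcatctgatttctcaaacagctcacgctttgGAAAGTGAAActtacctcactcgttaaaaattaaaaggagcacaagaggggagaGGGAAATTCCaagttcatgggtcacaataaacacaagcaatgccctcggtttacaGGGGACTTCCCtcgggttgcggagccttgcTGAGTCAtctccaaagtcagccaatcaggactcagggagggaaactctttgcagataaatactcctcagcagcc
Cxcl9, chr5:92328080-92328329, minus strand: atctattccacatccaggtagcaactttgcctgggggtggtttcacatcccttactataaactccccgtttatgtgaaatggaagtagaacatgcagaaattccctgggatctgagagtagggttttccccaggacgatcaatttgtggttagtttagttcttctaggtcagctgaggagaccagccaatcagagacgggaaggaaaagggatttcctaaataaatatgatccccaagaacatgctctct
Pf4, chr5:90772185-90772434, plus strand: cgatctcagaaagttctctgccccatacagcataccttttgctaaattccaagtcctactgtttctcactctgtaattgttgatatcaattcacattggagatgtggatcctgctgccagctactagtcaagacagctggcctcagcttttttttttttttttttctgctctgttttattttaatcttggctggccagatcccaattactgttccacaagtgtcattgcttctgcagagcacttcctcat
Cxcl1, Cxcl2 and Cxcl3 each carried the same NF-kappaB match, GGGAATTTCC, which began 71, 97 and 73 bases before the start and overlapped its own match on the opposite strand. Cxcl10 held NF-kappaB matches beginning 159, 104 and 103 bases before the start, the last 2 overlapping, as well as an ISRE match at 213 and an AP-1 match at 74 bases. None of these letters, nor the STAT motif GAS (TTCNNNGAA), was found in the windows of Cxcl9 and Pf4, which says only that they were not in these 250 bases. All 250 bases were searched, also for Cxcl1 and Cxcl2, of which 246 and 222 are printed. Among 32851 promoter windows of 250 bases, 7.25% held an NF-kappaB match, 2.98% an ISRE match, 6.75% an AP-1 match and 7.02% a GAS match. Cxcl11 and Cxcl16 had no entry in the table.

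**Figure D1:**
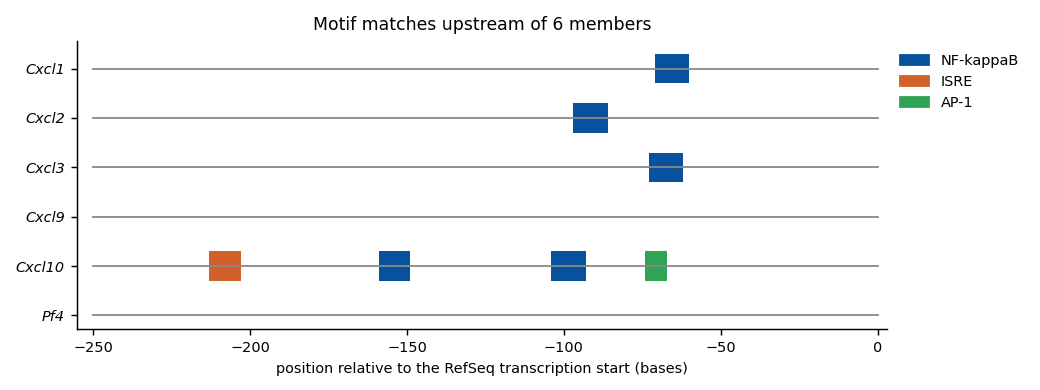
Motif matches in the 250 bases before the RefSeq start of 6 genes; the x axis gives the position in bases relative to the start and coloured blocks mark matches on either strand. The NF-kappaB block lies between 97 and 61 bases before the start in Cxcl1, Cxcl2 and Cxcl3, Cxcl10 holds 3 kinds of match, and the lines for Cxcl9 and Pf4 are empty.

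LPS at 2 h raised all 8 genes in WT and 7 of 8 in KO, Pf4 being the exception (adjusted p = 0.0550, a value that turned with single libraries, as given below with Pf4), and lowered none, whereas among the 11624 genes tested 14% rose and 9.1% fell in WT and 14.7% rose and 9.16% fell in KO. The median log2 fold change of the 8 genes was 5.04 in WT and 6.12 in KO (5.43 with Cxcl11 at its lower bound), against -0.009 and -0.011 over all genes tested. By size of the fitted log2 fold change, Cxcl1 ranked 1 of 11624 genes in WT and 2 in KO. Whether more RNA per cell or more cells making it lay behind such a change cannot be told apart in bulk libraries.

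Cxcl1 and Cxcl2, the neutrophil attractants of the cluster, were almost silent at rest and abundant at 2 h of LPS. In WT, Cxcl1 stood at 0.581, 1.16 and 1.04 CPM in Control at 2 h and at 366, 345 and 345 CPM with LPS. In KO it was 1.27, 1.25 and 0.509 CPM in Control and 267, 296 and 339 CPM with LPS. The lowest LPS library stood far above the highest Control library in both genotypes. The log2 fold change was 8.51 ± 0.22 (SE, n = 3 per group; adjusted p = 1.76e-33) in WT and 8.20 ± 0.23 (adjusted p = 1.14e-32) in KO. Cxcl2 was the most abundant member at this time on a per-length scale. It went from 8.90, 8.44 and 5.93 CPM to 747, 726 and 788 CPM in WT, and from 5.97, 11.3 and 6.79 CPM to 820, 771 and 774 CPM in KO. The groups were far apart in both genotypes. Both log2 fold changes were 6.62 ± 0.18 (adjusted p = 2.35e-34 in WT and 2.54e-34 in KO).

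Both transcripts were transient. After 24 h of LPS, Cxcl1 was 3.94, 1.32 and 1.22 CPM in WT and 1.19, 1.49 and 3.95 CPM in KO, and Cxcl2 was 10.1, 18 and 7.35 CPM in WT and 16.1, 9.52 and 24.2 CPM in KO. Between 2 and 24 h of LPS, the log2 fold change of Cxcl1 was -7.36 ± 0.20 in WT (adjusted p = 5.85e-33) and -7.04 ± 0.20 in KO (adjusted p = 2.26e-32), and it was -8.07 without WT LPS 24 h library 1 and -7.79 without KO LPS 24 h library 3. That of Cxcl2 was -6 ± 0.17 in WT (adjusted p = 1.34e-33) and -5.53 ± 0.16 in KO (adjusted p = 4.58e-33). Even so, both stayed above Control at 24 h. Cxcl2 was 1.12, 2.23 and 1.46 CPM in WT Control and 3.23, 3.46 and 3.11 CPM in KO Control at 24 h, which left log2 fold changes of 2.81 ± 0.37 (adjusted p = 1.22e-08) and 2.37 ± 0.29 (adjusted p = 2.05e-09). Cxcl1 had no count in any WT Control library at 24 h. Against a floor of 3 counts per library it was at least 3.62-fold higher with LPS (adjusted p = 4.22e-06). In KO at 24 h, Cxcl1 held 1, 4 and 1 counts in Control and 8, 8 and 27 counts with LPS, so its fold rests on few counts. The KO log2 fold change was 2.58 ± 0.61 (adjusted p = 0.000499), and it was 3.50 without KO Control 24 h library 2 and 1.82 without KO LPS 24 h library 3.

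Cxcl3, the third CXCR2 ligand, did not follow its neighbours. It reached 47.6, 38.4 and 44.6 CPM in WT and 38.7, 73.1 and 68.1 CPM in KO at 2 h of LPS, from 3.10, 1.82 and 0.593 CPM and 1.45, 0.537 and 2.71 CPM in Control. At 24 h of LPS it was still 41.6, 62.1 and 36.4 CPM in WT and 62.2, 39.6 and 70.1 CPM in KO. The libraries of the 2 times overlapped in both genotypes. The log2 fold change over Control was 4.62 ± 0.38 (adjusted p = 2.02e-14) and 5.25 ± 0.38 (adjusted p = 1.79e-16) at 2 h in WT and KO, the latter 5.90 without KO Control 2 h library 3. At 24 h it was 4.30 ± 0.37 (adjusted p = 2.91e-14) in WT and 3.97 ± 0.33 (adjusted p = 1.76e-14) in KO. From 2 to 24 h of LPS the log2 difference was 0.11 (95% interval -0.40 to 0.61) in WT and -0.09 (-0.57 to 0.40) in KO, neither past the threshold. Between 2 and 24 h of LPS, 22.5% of all genes tested rose and 24.9% fell in WT, and 23.6% rose and 25.6% fell in KO. Of the 8 members, 2 rose (Cxcl9 and Cxcl16) and 5 fell (Cxcl1, Cxcl2, Cxcl10, Cxcl11 and Pf4) in each genotype.

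Among the CXCR3 ligands, Cxcl10 was early and Cxcl9 late. Cxcl10 was 4.65, 4.30 and 5.33 CPM in WT Control at 2 h and 528, 663 and 534 CPM with LPS. In KO it was 7.42, 4.48 and 5.09 CPM in Control and 588, 609 and 646 CPM with LPS. All 6 LPS libraries were above 500 CPM and all 6 Control libraries below 8 CPM. The log2 fold change was 6.90 ± 0.15 (adjusted p = 1.77e-38) in WT and 6.76 ± 0.14 (adjusted p = 1.54e-38) in KO. By 24 h of LPS the level was 7.53, 7.78 and 8.27 CPM in WT and 9.54, 10.1 and 10.7 CPM in KO, a log2 fold change from 2 h of -6.19 ± 0.13 (adjusted p = 8.45e-38) and -5.92 ± 0.13 (adjusted p = 1.16e-37). Control at 24 h stood lower still, at 0.561, 0 and 0.874 CPM in WT and at 0.248, 0.182 and 0.142 CPM in KO. The remaining rise in WT was 3.94 ± 0.40 (adjusted p = 6.62e-12), and 3.33 without WT Control 24 h library 2 and 5.07 without library 3. In KO, Control held 3 counts in all, and the ratio was 55.9 with an exact 95% counting interval of 18.8 to 273 (adjusted p = 3.21e-15).

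Cxcl9 was hardly detected without LPS, with 0 to 4 counts in every Control library. At 2 h of LPS it was 6.80, 2.47 and 2.79 CPM in WT and 1.90, 5.07 and 4.11 CPM in KO. At 24 h it was 40.2, 35.2 and 48.4 CPM in WT and 42.9, 46.1 and 37.8 CPM in KO, so that every 24 h library exceeded every 2 h library. The rise from 2 to 24 h was 3.49 ± 0.36 (adjusted p = 2.66e-11) in WT and 3.42 ± 0.35 (adjusted p = 3.43e-11) in KO. Against Control at 24 h, where no WT library held a count, Cxcl9 was at least 69.1-fold higher in WT (adjusted p = 1.41e-16). In KO the ratio, against 2 counts, was 348 with a counting interval of 96.0 to 2880 (adjusted p = 2.25e-16). At 2 h the ratio was 31.7 (8.28 to 269) in WT and 68.3 (11.7 to 2750) in KO, again against 1 or 2 counts in Control (adjusted p = 8.28e-06 and 2.24e-06). At 24 h of LPS, 19.6% of all genes tested rose and 19.9% fell in WT, and 19.9% rose and 21% fell in KO. Of the 8 members, 7 rose in WT and 6 in KO, and 0 fell. Their median log2 fold change was 3.68 in WT (3.12 with Cxcl1 and Cxcl9 at their lower bounds) and 2.48 in KO, against -0.011 and -0.009 over all genes tested.

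Cxcl11, whose C57BL/6 allele is known to carry a frameshift, was close to the limit of detection. It had 10, 22 and 7 counts in WT and 3, 17 and 14 counts in KO at 2 h of LPS, which is 3.58, 4.52 and 1.30 CPM and 1.14, 3.44 and 3.03 CPM. Control at 2 h held 1 count in WT and 0 in KO. The ratio in WT was 53.7 with a counting interval of 9.09 to 2170 (adjusted p = 0.000533), and in KO Cxcl11 was at least 4.79-fold higher than the floor of 3 counts per library (adjusted p = 0.000369). The Wald test of DESeq2 did not call either (adjusted p = 0.163 and 0.108). By 24 h of LPS, 4 counts were left in WT and 12 in KO. The fall from 2 h had adjusted p = 0.00133 in WT and 0.0317 in KO, and DESeq2 called neither (adjusted p = 0.263 and 0.567). In KO the call was also lost without KO LPS 2 h library 2 or 3 or KO LPS 24 h library 2 (adjusted p = 0.120, 0.0838 and 0.131). LPS against Control at 24 h did not pass the threshold (adjusted p = 0.204 in WT and 0.180 in KO).

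**Figure D2:**
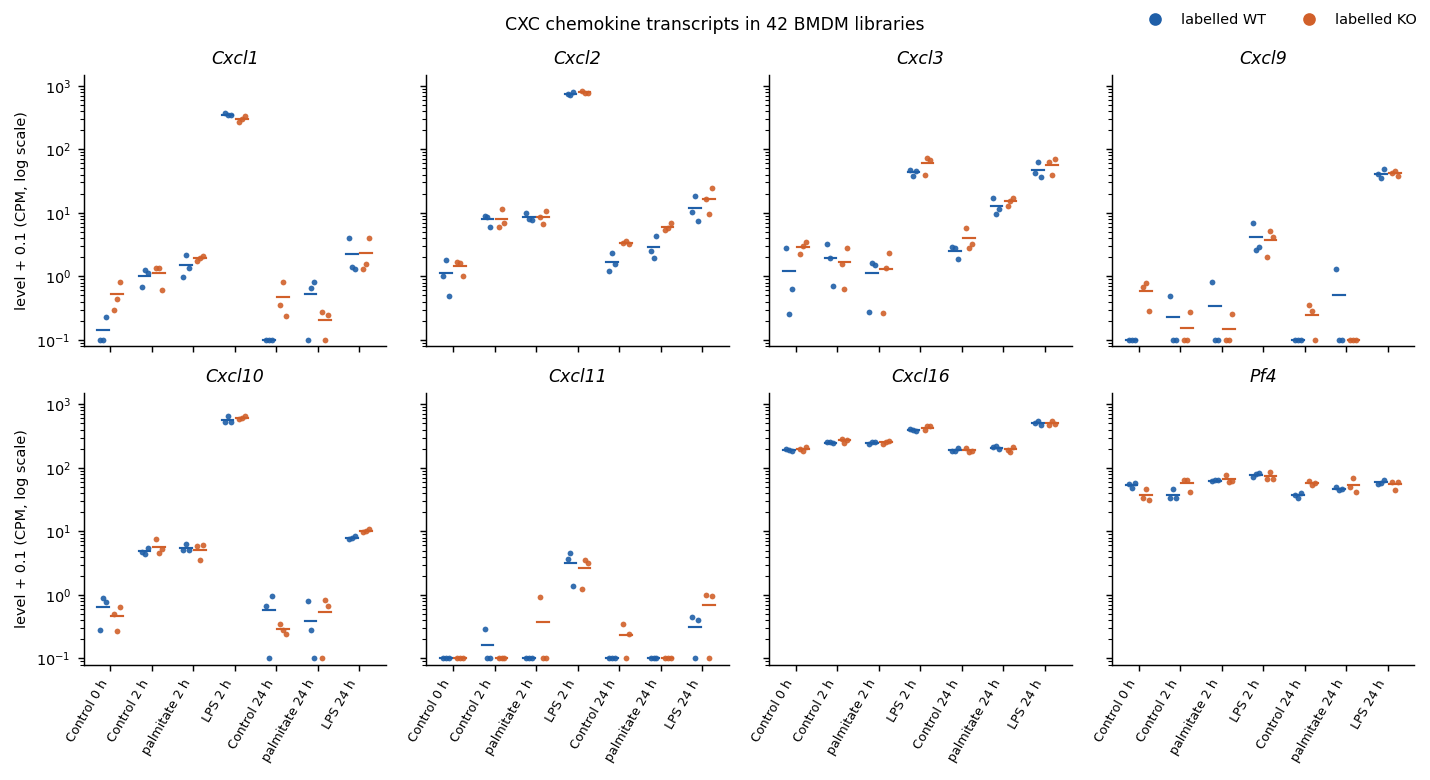
Level of each CXC chemokine in the 42 libraries, plotted as CPM + 0.1 on a log scale against condition; points are libraries, lines are group means (n = 3), blue is labelled WT and orange labelled KO. Cxcl1, Cxcl2 and Cxcl10 peak at 2 h of LPS, Cxcl9 at 24 h, Cxcl3 is high at both times, and Cxcl16 and Pf4 are far above the floor in all libraries.

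Cxcl16 and Pf4 held at least 652 and 135 counts in every library, and with LPS their fitted log2 fold changes over Control were smaller than those of the other members. Cxcl2 and Cxcl3 were also counted in every library, but with as few as 3 and 1 counts. Cxcl16 was 252, 252 and 243 CPM in WT Control at 2 h and 413, 398 and 378 CPM with LPS. In KO it was 284, 249 and 276 CPM in Control and 389, 452 and 448 CPM with LPS. The LPS libraries lay above the Control libraries without overlap, with log2 fold changes of 0.67 ± 0.07 (adjusted p = 4.36e-11) in WT and 0.68 ± 0.07 (adjusted p = 2.54e-11) in KO. At 24 h Cxcl16 rose further, to 502, 554 and 478 CPM in WT and 467, 540 and 498 CPM in KO, from 183, 181 and 205 CPM and 202, 179 and 186 CPM in Control. The log2 fold changes were 1.43 ± 0.07 (adjusted p = 6.05e-23) and 1.41 ± 0.07 (adjusted p = 9.07e-23). From 2 to 24 h of LPS the rise was 0.37 ± 0.07 (adjusted p = 1.24e-05) in WT and 0.22 ± 0.07 (adjusted p = 0.00705) in KO. The KO call was lost without KO LPS 2 h library 1 or KO LPS 24 h library 2 (adjusted p = 0.0571 and 0.0568).

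The share of each gene in the summed level of the 8 genes per kb of exon changed accordingly. In WT Control at 0 h, Pf4 made up 53.6% and Cxcl16 45.6%, and all others together were under 1%. At 2 h of LPS in WT, Cxcl2 held 34.3%, Cxcl10 24.0%, Cxcl1 17.7%, Cxcl16 12.4% and Pf4 10.2%. At 24 h of LPS in WT, Cxcl16 led with 58.6%, followed by Pf4 with 28.4%, Cxcl9 with 4.74% and Cxcl3 with 4.62%. The shares in KO had the same order at 2 h of LPS, with Cxcl2 at 35.4%, Cxcl10 at 25.3% and Cxcl1 at 14.9%. The summed level was 248 ± 10.4 CPM (SD, n = 3) in WT Control at 0 h, 2210 ± 44.7 CPM at 2 h of LPS and 680 ± 48.5 CPM at 24 h.

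**Figure D3:**
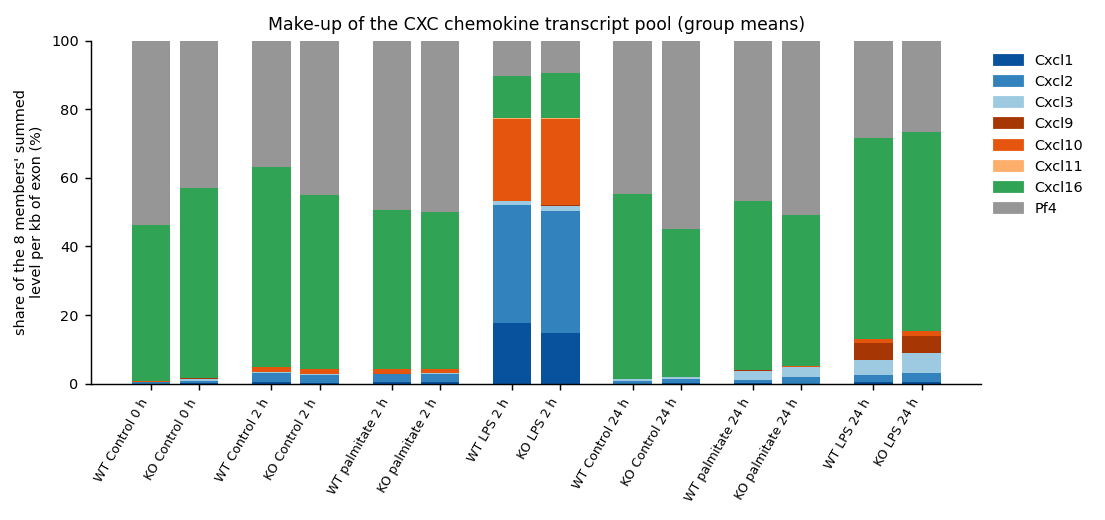
Share of each gene in the summed level of the 8 genes per kb of exon, in percent of group means (y axis), for the 14 groups (x axis). Cxcl16 and Pf4 together hold most of each bar except at 2 h of LPS, where Cxcl2, Cxcl10 and Cxcl1 hold 34.3%, 24.0% and 17.7% in WT. At 24 h of LPS in WT, Cxcl16 and Pf4 hold 58.6% and 28.4%.

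In the order of group means, Cxcl1, Cxcl2 and Cxcl10 had both LPS 2 h groups on top, clear of all other groups. For Cxcl2 and Cxcl10 those 2 groups overlapped each other. Cxcl9 and Cxcl16 had both LPS 24 h groups on top, followed by both LPS 2 h groups, with no overlap between the times. In Cxcl3 the 4 LPS groups overlapped in sequence, then came both groups of palmitate at 24 h, then the other 8 groups. Pf4 had no neighbouring groups in its order that did not overlap. Over the 14 group means of log2 CPM, the Pearson correlation was 0.978 between Cxcl1 and Cxcl2 and 0.966 between Cxcl1 and Cxcl10. It was 0.511 between Cxcl9 and Cxcl10 and 0.912 between Cxcl9 and Cxcl16. These values describe 14 points that share libraries and depth.

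Few members were called with palmitate, and Cxcl3, at 24 h, was the only one called in both genotypes. At 24 h, Cxcl3 was 17.3, 9.60 and 11.5 CPM with palmitate and 2.81, 2.74 and 1.75 CPM in Control in WT. In KO it was 12.5, 15.4 and 17.2 CPM with palmitate and 5.71, 2.73 and 3.11 CPM in Control. No palmitate library overlapped a Control library. The log2 fold change was 2.44 ± 0.42 (adjusted p = 0.000303) in WT and 2.04 ± 0.37 (adjusted p = 0.000776) in KO, and its interaction with genotype was -0.41 ± 0.60 (adjusted p = 1). Among all genes tested, 0.671% rose and 0.181% fell with palmitate at 24 h in WT, and 0.637% rose and 0.241% fell in KO. At 2 h Cxcl3 showed no such rise, with 0.179, 1.52 and 1.43 CPM in WT and 0.167, 1.24 and 2.26 CPM in KO. Its log2 difference from Control at 2 h was -0.74 (95% interval -2.17 to 0.69) in WT and -0.33 (-1.69 to 1.04) in KO.

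The LPS and palmitate comparisons shared their Control libraries. Cxcl2 with palmitate at 24 h was 2.42, 1.85 and 4.15 CPM in WT and 5.36, 5.61 and 6.69 CPM in KO. In KO these lay above all Control libraries, but the log2 differences of 0.75 ± 0.52 (adjusted p = 0.729) and 0.86 ± 0.37 (adjusted p = 0.498) did not pass. The KO difference was called in the fit of all genes with at least 1 count (adjusted p = 0.0300). At 2 h of palmitate, Pf4 was the only member called in WT, and 0 members were called in KO by edgeR (0 at an unadjusted p under 0.05, and 0 by DESeq2). Among all genes tested, 0.103% rose and 0.172% fell at 2 h in WT, and 0.0774% rose and 0.0344% fell in KO. Cxcl1 and Cxcl9 had at most 7 counts in any library with palmitate at 24 h, and Cxcl11 had 0, too few to show that they did not change. Pf4 at 24 h of palmitate in WT was 50, 44.7 and 46.6 CPM, above every WT Control library. Its log2 difference of 0.33 ± 0.16 did not pass (adjusted p = 0.523). At an unadjusted p under 0.05, 4 members in WT and 2 in KO passed at 24 h, with no share over all genes at that threshold beside them.

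**Figure D4:**
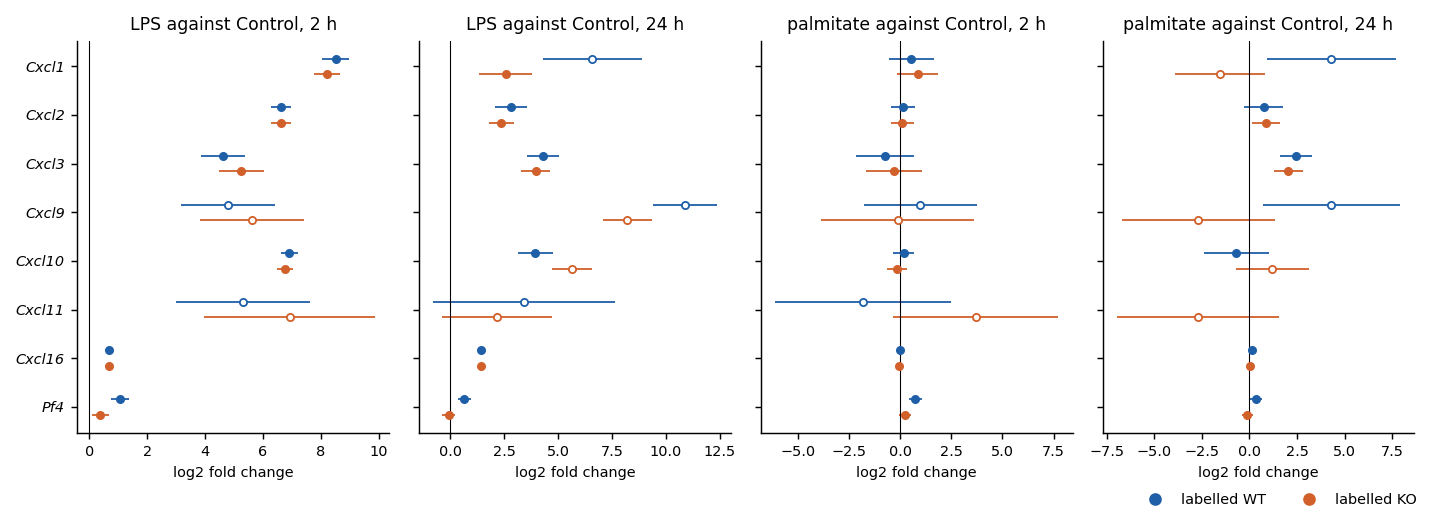
Fitted log2 fold change (x axis) of each gene for LPS and palmitate against Control at 2 and 24 h in WT (blue) and KO (orange), with 95% intervals; n = 3 per group. Open circles mark comparisons with 3 or fewer counts in one group, whose fitted value depends on the prior count, and Cxcl11 with palmitate at 24 h in WT is left out since both groups held 0 counts. With LPS at 2 h all points lie right of 0, and with palmitate Cxcl3 at 24 h lies right of 0 in both genotypes.

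Time in culture in the groups labelled Control also moved 4 members. In Control at 2 h against 0 h, over both genotypes, Cxcl10 rose by 3.45 ± 0.31 on the log2 scale (adjusted p = 5.40e-13), Cxcl2 by 2.75 ± 0.31 (adjusted p = 3.85e-10), Cxcl1 by 2.46 ± 0.64 (adjusted p = 0.00417; 3.31 without WT Control 0 h library 3) and Cxcl16 by 0.41 ± 0.05 (adjusted p = 6.15e-09). At 0 h, Cxcl10 was 0.181, 0.789 and 0.661 CPM in WT and 0.393, 0.171 and 0.540 CPM in KO, and Cxcl2 was 0.905, 1.74 and 0.397 CPM in WT and 1.57, 1.54 and 0.900 CPM in KO. All 6 Control libraries at 2 h were above these ranges for both genes. Cxcl1 at 0 h held 0, 0 and 1 counts in WT and 1, 2 and 4 counts in KO, so the size of its rise rests on counts near the floor. Of all genes tested, 9.35% rose and 7.36% fell at 2 h. At 24 h against 0 h, 0 members were called by edgeR (1 at an unadjusted p under 0.05), while 7.9% of all genes rose and 8.62% fell. DESeq2 called 1, Cxcl2, whose log2 difference was 1.01 ± 0.42 (adjusted p = 0.0921 by edgeR and 0.0269 by DESeq2). The comparison of palmitate or LPS with Control of the same time does not include this change.

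Between the libraries labelled KO and WT, 1 of 8 members (12.5%) was called in Control at 0 h, where 12.5% of all genes tested were called, so this share equals the background. No member was called by edgeR in the other 6 conditions. At 2 h of LPS the log2 difference (KO minus WT) lay between -0.22 and 0.50 over the 8 genes, and the smallest adjusted p was 0.443. It was 0.09 (95% interval -0.09 to 0.28) for Cxcl10, 0.06 (-0.17 to 0.30) for Cxcl2 and 0.12 (-0.02 to 0.26) for Cxcl16. Cxcl1 was lower in every KO than in every WT library, but its difference of -0.22 ± 0.12 (adjusted p = 0.463) did not pass. For Cxcl3 the difference was 0.50 ± 0.25 (adjusted p = 0.443). At 24 h of LPS, Cxcl10 was higher in every KO library than in every WT library, with a log2 difference of 0.36 ± 0.20 (adjusted p = 0.601). Cxcl2 differed by 0.53 ± 0.22 at 24 h of LPS (adjusted p = 0.425) and by 1.07 ± 0.38 at 24 h of palmitate (adjusted p = 0.426), and neither passed. With palmitate, every KO library was above every WT library. Both differences were called in the fit of all genes with at least 1 count (adjusted p = 0.0365 and 0.00489).

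Over all genes tested, the share called between genotypes was 0.49% in Control at 2 h, 0.146% in palmitate at 2 h, 0.465% in LPS at 2 h, 0.12% in Control at 24 h, 0.0688% in palmitate at 24 h and 0.146% in LPS at 24 h. The test of edgeR called 0 members in each of these 6. At an unadjusted p under 0.05 the counts were 1, 0, 0, 2, 2 and 1, and DESeq2 called 0 in each. In the 4 interactions of genotype with treatment, edgeR and DESeq2 called 0 members each. The counts at an unadjusted p under 0.05 were 1 and 2 for LPS at 2 and 24 h and 1 and 3 for palmitate at 2 and 24 h. The shares over all genes, at adjusted p under 0.05, were 0% and 0.0086% for LPS at 2 and 24 h and 0% for palmitate at both times. Shares over all genes at an unadjusted p under 0.05 are not given here, so the unadjusted counts of members have no background beside them. Fibroblast markers differed between libraries, with a summed level of 0.905 to 1.42 CPM in WT and 43.1 to 70.7 CPM in KO in Control at 0 h, and of 1.30 to 2.15 CPM in WT and 3.04 to 159 CPM in KO at 2 h of LPS. Some WT libraries were high in other conditions, up to 60.1 CPM in Control at 2 h. All 7 genes of that list were in the table and Dcn and Lum were at or near 0. Granulocyte markers summed to 45.4 to 66.1 CPM in WT and 119 to 204 CPM in KO at 2 h of LPS, with Ly6g at 0 in 40 of 42 libraries. Their part in the genotype comparisons was not tested.

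The member called in Control at 0 h was Pf4, but the call depended on the fit. DESeq2 called Cxcl9 as well, the fit of all genes with at least 1 count called Cxcl3 and Cxcl9 as well, and without WT Control 0 h library 1 Cxcl3 was called and Pf4 was not. Cxcl9 held 0 counts in WT and 8 in KO at 0 h. For Pf4, in Control at 0 h it was 56.5, 47.5 and 57.2 CPM in WT and 33.2, 46.6 and 30.6 CPM in KO, a log2 difference of -0.54 ± 0.15 (adjusted p = 0.0149). In Control at 2 h the order was the opposite, with 33.7, 46.5 and 33 CPM in WT and 64.2, 64.5 and 42.1 CPM in KO (log2 difference 0.59 ± 0.15, adjusted p = 0.0648). The same held at 24 h, with 37.9, 33.8 and 40.4 CPM in WT and 62.6, 53.6 and 57.5 CPM in KO (0.63 ± 0.16, adjusted p = 0.140). The call at 0 h was lost without WT Control 0 h library 1 or 3 or KO Control 0 h library 1 or 3, with adjusted p between 0.0541 and 0.138. In fits of only the libraries compared, the Control difference at 2 h and at 24 h was called (adjusted p = 0.0129 and 0.000123). The 9 megakaryocyte and platelet markers, all in the table, summed to 8.53 to 25.5 CPM in WT and 25.5 to 38.2 CPM in KO in Control at 0 h. The sums were 11.3 to 24.8 and 19 to 51 CPM at 2 h and 13.9 to 23.2 and 35.7 to 48.5 CPM at 24 h. Over all libraries, Itga2b ranged from 5.42 to 44 CPM, and each other marker of this list was at most 8.69 CPM. Gp9 was at most 1.99 CPM, Treml1 2.23 CPM, Gp6 2.63 CPM and Gp1bb 2.90 CPM. The part of these markers in the result was not tested.

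Treatment moved Pf4 in WT. At 2 h it was 70.5, 79.9 and 83.9 CPM with LPS, and 61.6, 64.2 and 63.1 CPM with palmitate, all above WT Control. The log2 fold changes were 1.06 ± 0.15 (adjusted p = 1.87e-07) and 0.74 ± 0.15 (adjusted p = 0.00982). In KO the values were 67.6, 86.1 and 67.0 CPM with LPS and 78.0, 59.7 and 61.2 CPM with palmitate, close to those in WT. In KO the LPS value turned with single libraries: it was called without KO Control 2 h library 1 or 2 or KO LPS 2 h library 3 (adjusted p = 0.0374, 0.0377 and 0.0476), and in the fit of all genes with at least 1 count (adjusted p = 0.00864). With all libraries, the log2 differences from KO Control were 0.38 ± 0.15 (adjusted p = 0.0550) and 0.22 ± 0.14 (adjusted p = 1). At 24 h of LPS, Pf4 was 56.1, 57.3 and 63.8 CPM in WT (0.66 ± 0.15, adjusted p = 0.000445) and 58.7, 45.4 and 60.8 CPM in KO (-0.06 ± 0.15, adjusted p = 0.778). The difference between genotypes in the response did not pass, with an interaction of -0.68 ± 0.21 for LPS at 2 h (adjusted p = 0.365), -0.72 ± 0.21 for LPS at 24 h (adjusted p = 0.824), -0.52 ± 0.21 for palmitate at 2 h (adjusted p = 0.998) and -0.45 ± 0.22 for palmitate at 24 h (adjusted p = 1). In the fit of all genes with at least 1 count, the LPS interactions at 2 and 24 h were called (adjusted p = 0.00745 and 0.00303). The LPS and palmitate interactions share the Control libraries of the previous paragraph.

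From 2 to 24 h of LPS, Pf4 fell by 0.41 ± 0.15 on the log2 scale in WT (adjusted p = 0.0170) and by 0.42 ± 0.15 in KO (adjusted p = 0.0153). Leaving out single libraries ended several calls of Pf4. The palmitate call was lost without WT Control 2 h library 1 or 3 or WT palmitate 2 h library 1 or 2 (adjusted p up to 0.134). The fall with time was lost in WT without LPS 2 h library 2 or 3 or LPS 24 h library 1 or 2 (adjusted p up to 0.0837). In KO it was lost without LPS 2 h library 2 or LPS 24 h library 2 (adjusted p up to 0.172).

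**Figure D5:**
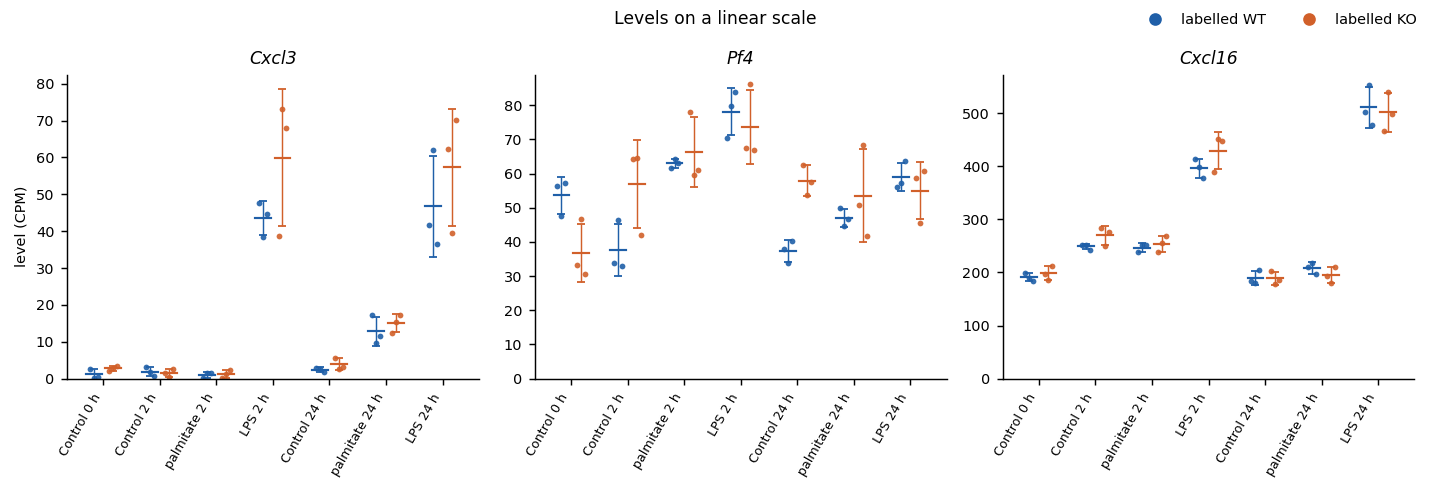
Level in CPM (linear y axis from 0) of Cxcl3, Pf4 and Cxcl16 by condition; points are libraries, bars are mean ± SD (n = 3), blue is labelled WT and orange labelled KO. Cxcl3 is raised by LPS at both times and by palmitate at 24 h, Cxcl16 is highest at 24 h of LPS, and Pf4 in Control is lower in KO at 0 h and higher in KO at 2 and 24 h.

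Other CXC chemokine genes were scarce in these cells. Cxcl17 had no count, Cxcl15 had at most 1 count in a library, and Cxcl5, Cxcl12 and Cxcl13 stayed at or under 1.82 CPM. Of the 7 genes of this list, 2 were tested, Ppbp (0.281 to 8.69 CPM) and Cxcl14 (1.22 to 9.67 CPM), and neither was called with LPS at 2 or 24 h in either genotype. Of the 8 CXC receptor genes, 3 were tested. Cxcr4, the CXCL12 receptor, fell by 1.13 ± 0.10 on the log2 scale in WT at 2 h of LPS (adjusted p = 4.68e-13) and by 1.66 ± 0.11 in KO (adjusted p = 3.32e-18). At 24 h it fell by 0.62 ± 0.11 in WT (adjusted p = 3.12e-06) and by 0.92 ± 0.11 in KO (adjusted p = 4.98e-10). The other receptor calls for LPS against Control were a fall of Cxcr2 and of Cxcr3 in WT at 24 h (adjusted p = 0.0370 and 0.0135), both at or under 4.97 CPM. Over all genes, 9.1% fell in WT and 9.16% in KO at 2 h of LPS, and 19.9% and 21% at 24 h. At 2 h of LPS, Cxcr4 was lower in KO than in WT (-0.49 ± 0.12, adjusted p = 0.034), where 0.465% of all genes were called. Its interaction of genotype with LPS at 2 h did not pass (-0.52 ± 0.15, adjusted p = 0.342). From 2 to 24 h of LPS it fell in WT by 0.36 ± 0.11 (adjusted p = 0.00605). Against 0 h, Cxcr4 in Control rose at 2 h and fell at 24 h.

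The NF-kappaB subunits and inhibitors, which act upstream of the early chemokines, rose together at 2 h of LPS. All 12 listed genes rose in both genotypes, with a median log2 fold change of 2.08 in WT and 2.23 in KO. At 24 h, 9 rose and 1 (Rel) fell in WT, and 10 rose and 1 (Nfkbid) fell in KO, with medians of 0.97 and 0.93. Nfkbiz, an inducible co-regulator of secondary response genes, rose by 5.44 ± 0.11 in WT at 2 h (adjusted p = 4.68e-39) and by 1.43 ± 0.12 at 24 h (adjusted p = 1.42e-14). The feedback inhibitors Tnfaip3 (A20), Nfkbia and Nfkbie rose by 4.46 ± 0.07, 2.98 ± 0.08 and 3.06 ± 0.09 at 2 h in WT (adjusted p = 2.21e-43, 3.17e-34 and 5.32e-32). In the interferon and STAT list of 18 genes, 13 rose and 1 (Irf8) fell at 2 h in WT, and 14 rose and 1 (Irf8) fell in KO. At 24 h, 12 rose and 1 (Ifngr1) fell in each genotype. The medians were 0.44 and 0.66 at 2 h and 0.56 and 1.03 at 24 h. For both lists, the shares over all genes were 14% higher and 9.1% lower in WT and 14.7% and 9.16% in KO at 2 h, and 19.6% and 19.9% in WT and 19.9% and 21% in KO at 24 h. Irf1, an activator of interferon-inducible genes, rose by 3.31 ± 0.09 at 2 h (adjusted p = 4.45e-33) and 1.36 ± 0.11 at 24 h (adjusted p = 9.72e-16) in WT.

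Transcripts of inflammatory mediators are also controlled by decay through AU-rich elements. Overlapping matches of the pentamer ATTTA were counted in the longest annotated 3′ untranslated region of at least 100 bases. They numbered 7 in Cxcl1 (11.8 per kb), 11 in Cxcl2 (7.36 per kb) and 5 in Cxcl3 (7.75 per kb). Cxcl10 and Cxcl9 each held 3 (3.01 and 1.22 per kb), Cxcl16 held 2 (1.41 per kb), and Cxcl11 and Pf4 held 1 each (0.821 and 8.13 per kb, the latter in a region of 123 bases). Over 19934 genes the median was 1.35 per kb. At least as many per kb as in Cxcl1 were found in 0.472% of genes, as in Cxcl2 in 2.51%, Cxcl3 in 2.10% and Pf4 in 1.77%. For Cxcl10 this share was 22.3%, for Cxcl16 48.8%, for Cxcl9 52.6% and for Cxcl11 61%. By number of matches, the share was 14% for Cxcl1, 5.77% for Cxcl2 and 22.8% for Cxcl3. It was 37.6% for Cxcl9 and Cxcl10, 49.6% for Cxcl16 and 68.3% for Cxcl11 and Pf4. A list of 9 genes for decay or stability of cytokine transcripts pools opposite functions, and not all of them act through AU-rich elements. Of these, 7 rose and 1 (Zfp36l2) fell at 2 h of LPS in each genotype, with medians of 1.04 in WT and 0.91 in KO. Over all genes, 14% rose and 9.1% fell in WT and 14.7% and 9.16% in KO. At 24 h, 3 rose and 4 fell in WT and 3 rose and 3 fell in KO, with medians of -0.24 and -0.06. The shares over all genes at 24 h were 19.6% higher and 19.9% lower in WT and 19.9% and 21% in KO. Zfp36 (tristetraprolin), which binds AU-rich elements, rose by 1.71 ± 0.09 in WT at 2 h (adjusted p = 9.56e-23), and at 24 h its log2 difference was -0.24 ± 0.11 (adjusted p = 0.0670). Zc3h12c, of the Regnase family, had the smallest adjusted p of the list and rose by 2.64 ± 0.11 at 2 h in WT (adjusted p = 2.31e-26). Zc3h12a, the endonuclease Regnase-1, rose by 2.19 ± 0.11 at 2 h (adjusted p = 5.84e-23) and 0.89 ± 0.13 at 24 h (adjusted p = 2.04e-07) in WT.

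A list of proteases that cut CXC chemokines and of their partners, the iRhoms Rhbdf1 and Rhbdf2, held 7 genes. Of these, 6 were tested, and the counts that follow include both iRhoms. At 2 h of LPS, 2 rose in WT, and 3 rose and 1 fell in KO, with medians of 0.22 and 0.50, against 14% of all genes higher and 9.1% lower in WT and 14.7% and 9.16% in KO. At 24 h, 3 rose and 3 fell in each genotype, with medians of -0.11 and -0.15, against 19.6% of all genes higher and 19.9% lower in WT and 19.9% and 21% in KO. Adam17, a sheddase, rose by 0.32 ± 0.06 at 2 h (adjusted p = 0.000108) and 0.42 ± 0.06 at 24 h (adjusted p = 2.99e-07) in WT. Its partner Rhbdf2 (iRhom2) rose by 1.14 ± 0.07 (adjusted p = 1.28e-19) and 0.84 ± 0.07 (adjusted p = 6.57e-14). Adam10, the sheddase of CXCL16, fell by 0.65 ± 0.06 at 24 h in WT (adjusted p = 6.14e-13), while Cxcl16 rose. Mmp12, which trims several CXC chemokines, fell by 2.14 ± 0.13 at 24 h in WT (adjusted p = 3.42e-20).

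The 3 genes with the most similar pattern to each member were sought in the 11036 tested genes whose mean reached 1 CPM, by the Pearson correlation r of log2 CPM over the 14 group means. For Cxcl1 they were Tiparp, Ccrl2 and Zfp281 (r = 0.992 to 0.988), and for Cxcl2 Nfkbie, Zc3h12c and Nfkbia (0.985 to 0.982). For Cxcl10 they were Rab20, Pde4b and Ralgds (0.993 to 0.989), and for Cxcl11 Adamts4, Rnd1 and C9orf72 (0.983 to 0.976). The late Cxcl9 was closest to Herc6, Irgm1 and Ccl5 (0.989 to 0.987). Cxcl3 was closest to Met, Lims1 and Mtm1 (0.975 to 0.964), and Cxcl16 to Slc31a2, Fbrsl1 and Lrrc4 (0.992 to 0.979). Pf4 had the weakest likeness, to Ofd1, Asah2 and Dennd6b (0.880 to 0.813).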

How the data were processed

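Total RNA of mouse BMDM in 14 groups of 3 was depleted of rRNA within a strand-specific kit protocol and sequenced. The authors aligned the reads to mm10 with STAR 2.7.3a, and fastp 0.19.11 is named in the submitters' processing notes. The values the authors deposited are raw counts, 1 row for each gene. Annotation release and strand setting are not given in the sources used here, so counts of overlapping genes and close paralogs are uncertain. Columns of the table name a group, not a replicate. Nothing in the labels says whether libraries came from separate animals, so p-values measure the spread between these libraries, which may be technical. The 42 pairs of libraries within groups differed by more than sampling noise (chi-square per degree of freedom 1.93 to 9.32).

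The software was edgeR 4.0.16 (R 4.3.3). Genes passing filterByExpr (11624 of 37310) were scaled by TMM and fitted in 1 quasi-likelihood model with a mean per group over all 42 libraries. The 23 comparisons were put to two-sided F tests of that model, with p-values adjusted by Benjamini-Hochberg across all 11624 genes and calls made below 0.05. The SE is the log2 fold change divided by the square root of F. Against a group without counts, a fold is a lower bound from a floor of 3 counts per library, and against 1 to 3 counts it is a ratio with an exact 95% counting interval. Total counts of 2848793 to 7743442 set the precision of low genes.

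The genes and lists were chosen with earlier results of these data known. Up to 4 genes of each list were named, taken from the 4 with the smallest adjusted p at 2 h of LPS in WT, while list members named as the exceptions in a count were chosen after their values were seen. Alternatives were RLE size factors, all genes with at least 1 count, only the libraries compared, DESeq2 1.42.0, and leaving out each library. The scripts were tested on simulated data. Positions come from GENCODE vM21, and promoter sequences from RefSeq, which held 6 of the 8 genes.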

Additional observations from a re-analysis of the deposited data

How the results depend on the processing

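The counts of members called kept within 1.5 times under RLE size factors in all 23 comparisons, and under DESeq2 and fits of only the libraries compared in 21 each. With all genes of at least 1 count, the count became 2 for palmitate at 24 h in KO, 3 between genotypes in Control at 0 h, 2 for Control at 24 h against 0 h, and 1 between genotypes in Control at 2 h, Control at 24 h, palmitate at 24 h and LPS at 24 h, and 1 for the interaction with LPS at 2 h and at 24 h. With only the libraries compared it was 1 between genotypes in Control at 2 h and at 24 h. DESeq2 gave 2 between genotypes in Control at 0 h and 1 for Control at 24 h against 0 h. The cause of these shifts was not tested. Leaving out 1 library gave 0 to 1 between genotypes in Control at 0 h and at 2 h, 0 to 1 for Control at 24 h against 0 h and for palmitate at 2 h in WT, and 4 to 7 for LPS at 24 h against 2 h in KO, with 4 without KO LPS 24 h library 2. It turned the sign of values that did not pass the threshold: Pf4 with LPS at 24 h in KO (-0.14 to 0.05) and Cxcl3 at 24 h against 2 h of LPS (-0.14 to 0.28 in WT and -0.28 to 0.12 in KO).

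No paired analysis was possible because the columns of the table name the group of a library but not its replicate number. The alternative with the replicate number as a block was therefore not run. With 3 libraries in each group and 3 counts worth up to 1.05 CPM, the levels of Cxcl9 and Cxcl11 outside LPS rest on 0 to 7 counts in a library. Their calls against Control have such counts on the Control side. Cxcl1 likewise held 0 to 4 counts in a library in Control at 0 and 24 h. With LPS, Cxcl9 held 5 to 25 counts in a library at 2 h and 213 to 316 at 24 h. Cxcl11 held 3 to 22 at 2 h and 0 to 6 at 24 h.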
